A study of Mus musculus with 6 samples.

Results

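Open chromatin was followed at the Fto obesity locus, at the 6 Iroquois genes (Irx1 to Irx6) and at Arid5b in cultured mouse adipocytes. These 8 genes, of 21851 protein-coding genes with an annotated start site, were chosen by name. Their peaks were those lying inside each gene or within 50 kb on both sides of it, together with every peak between Fto and Irx6 on chromosome 8. After the 6 peak lists had been merged, 246 of 194496 regions of the genome met this rule, and 141 of them lay between the start of Fto and the end of Irx6.

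The assay was ATAC-seq, in which a transposase cuts accessible DNA and the cuts pile up as peaks. There were 3 conditions of 2 libraries each, all from wild-type male C57BL/6J mice aged 3 to 4 weeks, and nothing in the labels ties a library to a single animal. Stromal vascular cells of inguinal fat were differentiated to beige or white adipocytes, and those of brown fat to brown adipocytes, for 7 days. Beige and brown cells shared a medium of insulin (5 μg/ml in the labels), dexamethasone (5 μM), T3 (1 nM), rosiglitazone (1 μM) and IBMX (0.5 mM), whereas white cells received the insulin, 1 μM dexamethasone and 0.5 mM IBMX without T3 or rosiglitazone. The study's methods give other insulin doses, which differ between the beige and the white medium. Beige and white cells therefore differed in medium. Brown and beige cells differed in depot, and for brown against white the depot and the medium cannot be told apart. The brown libraries also carry titles of another form and sample numbers apart from those of the other libraries. Depot therefore cannot be told apart from any difference in handling or time, which the labels do not give. The brown libraries are not described in the study's paper, and cultures started from stromal vascular cells can keep cells that did not differentiate.

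The lists held between 109143 and 127490 peaks per library. A promoter peak, with its summit within 1 kb of a coding start site, was present at 6 of 6 adipocyte marker genes in every library. Their median mean percentile was 55.8. Over all protein-coding genes, 62.4% had a promoter peak in all 6 libraries. Of 5 progenitor markers 3 (Pdgfra, Dpp4 and Cd34) were open at the promoter in all 6 libraries, at mean percentiles of 67.2, 77.9 and 70.1, and Ly6a was open in none. At 2 of 5 macrophage markers and at 3 of 4 endothelial markers a promoter peak was present in all 6 libraries, and at 0 of 4 skeletal muscle markers. Among markers with a peak in any library, the median mean percentile was 29.6 for macrophages and 77.2 for endothelial cells. Of the 3 brown-depot markers, Zic1 was open at its promoter in the brown libraries and in beige replicate 2, Lhx8 in all 6 libraries and Ucp1 in the brown libraries alone. The Ucp1 peaks were near the bottom of both brown lists, at percentiles of 9.12 and 4.23. The part of other cell types in the results was not tested.

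Fto encodes a demethylase that removes methyl groups from RNA adenines, and its first introns carry the variants most strongly linked to human obesity. Work on that locus has tied the intronic sequence to the distant genes IRX3 and IRX5, homeobox transcription factors of the TALE class, and to ARID5B, a DNA-binding cofactor that recognises AATATT. Irx3, Irx5 and Irx6 form one Iroquois cluster beside Fto in the mouse, and Irx1, Irx2 and Irx4 form its sister cluster on chromosome 13.

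The regions that separated the conditions most strictly are given first, since the comparisons turn on them. These 5 regions between Fto and Irx6 were called in all 4 beige and brown libraries and in neither white library, and another lay in the 4th intron of Arid5b. Each is shown with 100 bases on both sides of its strongest summit (mm10), with capitals marking matches to the motifs named after the values. Showing all of them and not the highest-ranked one alone was decided after their values were seen.
Fto intron 1 (chr8:91350494-91350694, plus strand): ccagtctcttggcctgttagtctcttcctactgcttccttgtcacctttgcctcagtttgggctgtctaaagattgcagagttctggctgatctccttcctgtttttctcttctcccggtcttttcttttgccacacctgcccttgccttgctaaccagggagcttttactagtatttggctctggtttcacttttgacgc
Fto intron 2 (chr8:91403825-91404025, plus strand): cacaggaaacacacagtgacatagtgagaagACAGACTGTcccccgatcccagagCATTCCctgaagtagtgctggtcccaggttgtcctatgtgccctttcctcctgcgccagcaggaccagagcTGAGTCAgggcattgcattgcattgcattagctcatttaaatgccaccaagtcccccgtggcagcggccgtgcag
Fto intron 8 (chr8:91615765-91615965, plus strand): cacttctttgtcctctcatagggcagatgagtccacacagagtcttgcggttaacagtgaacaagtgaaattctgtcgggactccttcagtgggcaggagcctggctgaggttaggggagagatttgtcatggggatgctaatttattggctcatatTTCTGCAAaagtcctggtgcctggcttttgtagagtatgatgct
Irx3 to Irx5, intergenic (chr8:92009342-92009542, plus strand): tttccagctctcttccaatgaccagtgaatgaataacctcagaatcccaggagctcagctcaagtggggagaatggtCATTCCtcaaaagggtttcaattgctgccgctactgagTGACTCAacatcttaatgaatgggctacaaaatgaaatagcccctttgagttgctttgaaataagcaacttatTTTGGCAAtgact
Irx5 to Irx6, intergenic (chr8:92489129-92489329, plus strand): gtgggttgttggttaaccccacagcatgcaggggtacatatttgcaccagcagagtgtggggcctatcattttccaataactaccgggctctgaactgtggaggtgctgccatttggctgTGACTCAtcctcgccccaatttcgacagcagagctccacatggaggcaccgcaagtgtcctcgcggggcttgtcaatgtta
Arid5b intron 4 (chr10:68135487-68135687, plus strand): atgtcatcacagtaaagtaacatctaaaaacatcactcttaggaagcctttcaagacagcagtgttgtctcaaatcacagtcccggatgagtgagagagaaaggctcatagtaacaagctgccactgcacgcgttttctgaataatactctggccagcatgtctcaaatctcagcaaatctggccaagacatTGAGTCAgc

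The strongest of these by mean rank, in the 2nd intron of Fto 90.4 kb from the start site, reached a fold-enrichment percentile of 51.1 and 63.7 in the beige libraries and of 54.5 and 70.2 in the brown libraries. The percentile is the share of peaks of the same library with a lower fold enrichment, so 100 is the strongest peak. Its −log10 q was 7.76 and 13.4 in beige and 10.7 and 14.8 in brown, against a calling threshold of 1.3. It was a peak of middle rank in all 4 libraries. The nearest peak of a white library lay 7.25 kb away, at a region open in all 6.

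The region in the 1st intron, 37.1 kb from the start, was weaker, at percentiles of 40.4 and 39.8 in beige and 44.0 and 18.3 in brown. The region in the 8th intron, 302.3 kb from the start, stood at 40.7 and 30.0 in beige and 63.6 and 52.5 in brown. Both brown libraries were therefore above both beige libraries in the 8th intron and not in the 1st. The nearest white peaks lay 4.96 kb and 7.90 kb away.

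The intergenic region 695.9 kb from the Fto start, between Irx3 and Irx5, had the highest −log10 q of the group, 31.3 in brown replicate 1, beside 13.3 in brown replicate 2, and 11.7 and 6.14 in beige. A peak of white replicate 1 at percentile 18.3 began only 35 bp from it, so that its absence from white depends on where the borders of the calls fell. The region between Irx5 and Irx6 was likewise 34 bp from a region open in all 6, and at percentiles of 13.1, 14.8, 18.2 and 16.9 it was among the weaker peaks. The Arid5b region was the weakest of the 6, at percentiles of 11.3 and 2.14 in beige and 1.14 and 8.28 in brown. Only the 3 regions in Fto introns thus lay kilobases from any white peak.

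**Figure D1:**
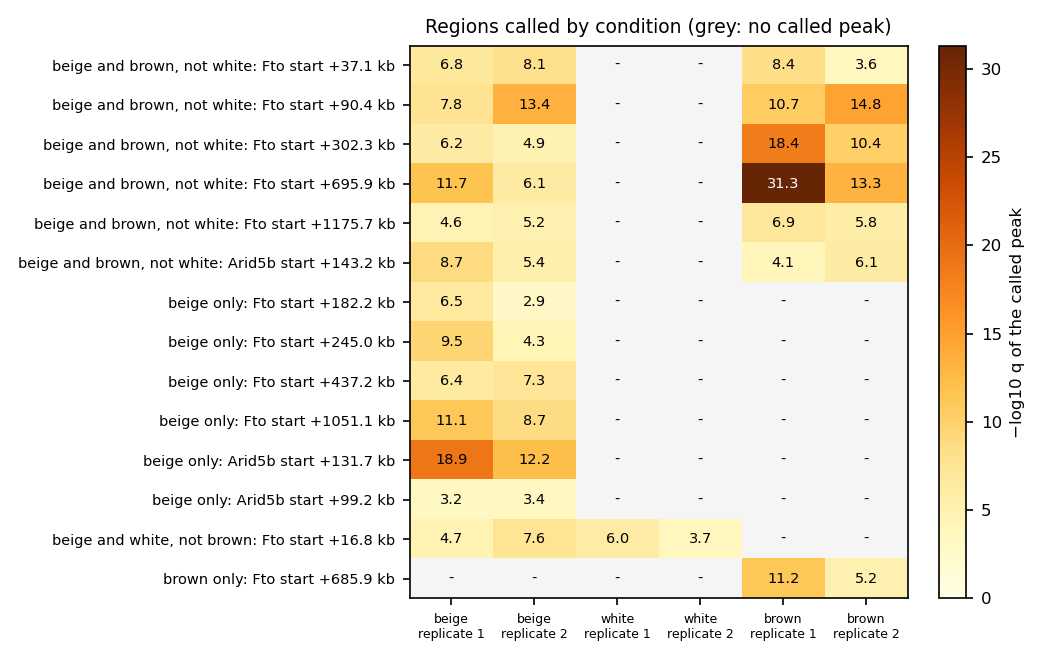
The −log10 q of each region called by condition (rows, with the distance of its summit from the Fto start or from the start of the long Arid5b isoform) in the 6 libraries (columns), grey with a dash where no peak was called. White libraries hold a value only in the region 16.8 kb from the Fto start, at 6.0 and 3.7.

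Between the start of Fto and the end of Irx6 (chr8:91313525-92680956, 1367 kb) the beige libraries held 69 and 86 peaks, the white libraries 72 and 60, and the brown libraries 70 and 73. The means were 77.5 ± 12.0 in beige, 66 ± 8.49 in white and 71.5 ± 2.12 in brown (SD, n = 2 each), and the ranges of all 3 conditions overlapped. Between 2 libraries and 2 an exact permutation test cannot give a two-sided p below 0.333, so no test was made between conditions.

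**Figure D2:**
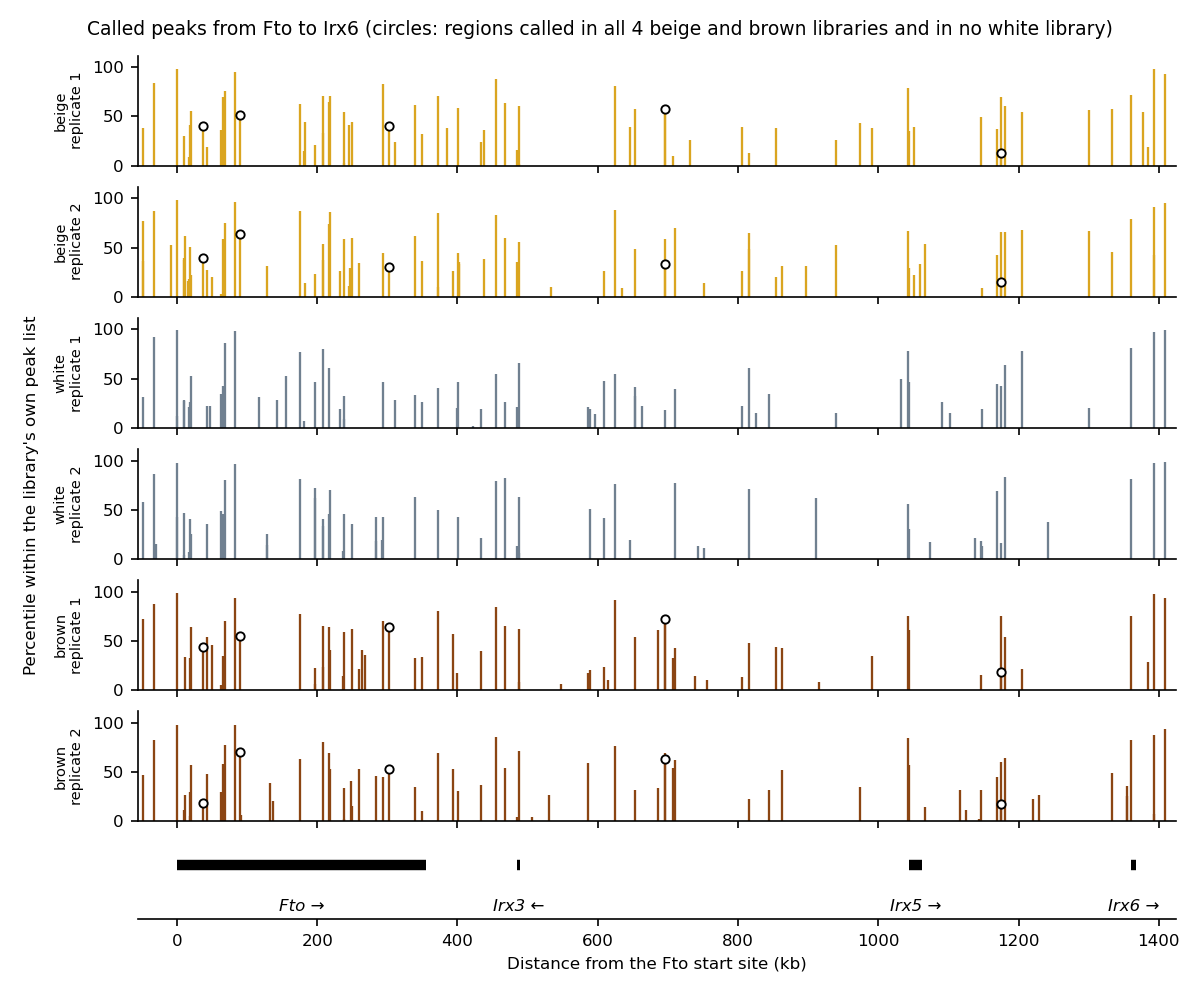
Called peaks of the 6 libraries from 50 kb before Fto to 50 kb after Irx6, as lines at the distance from the Fto start site (x axis, kb) with a height equal to the percentile within the library's own list (y axis). Circles mark the 5 regions called in beige and brown and not in white, of which 3 lie in Fto, and arrows give the direction of transcription.

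Of the 141 merged regions of the interval, 25 were called in all 6 libraries, which is 17.7% (95% exact binomial interval 11.8 to 25.1%), against 30.2% of all merged regions of the genome. A further 105 were mixed, meaning that the replicates of some condition disagreed. The class called in beige and brown but not white held 5 regions, or 3.55% (1.16 to 8.08%), against 1.25% of regions genome-wide. There were 4 beige-only regions (genome 1.94%), 1 called in beige and white but not brown (genome 1.16%) and 1 brown-only region (genome 0.878%). No region was white-only (genome 1.22%) or called in white and brown but not beige (genome 0.243%), and the exact 95% interval of 0 of 141 reaches up to 2.58%. These intervals cover counting error only, and each of these classes includes the genome's share within its interval, except the class open in all 6.

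Over all 8 windows and the interval together, 52 of 246 regions, or 21.1% (16.2 to 26.8%), were open in all 6 libraries, again below the share of the genome. There were 6 regions of the beige and brown class (2.44%, 0.900 to 5.23%) and 6 beige-only regions (2.44%). Regions called in a single library made up 103 of the 180 mixed ones. The class counts depended on single libraries: without beige replicate 1 the beige and brown class held 10 regions and without white replicate 1 it held 13, and at a q value under 0.00001 it held 3. Of the 6 regions, all 6 stayed in the class at a q value under 0.01 and with lists of the same length, 5 with a stricter overlap and 2 at a q value under 0.00001. The 2 were those in Fto intron 2 and between Irx3 and Irx5. The region lost with the stricter overlap was that in Fto intron 8. The beige-only class grew to 28 and 17 regions without beige replicate 1 and replicate 2, and fell to 3 with lists of the same length. The brown-only class grew from 1 to 22 and 14 regions without brown replicate 1 and replicate 2, and the white-only class from 0 to 16 and 23 without white replicate 1 and replicate 2.

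**Figure D3:**
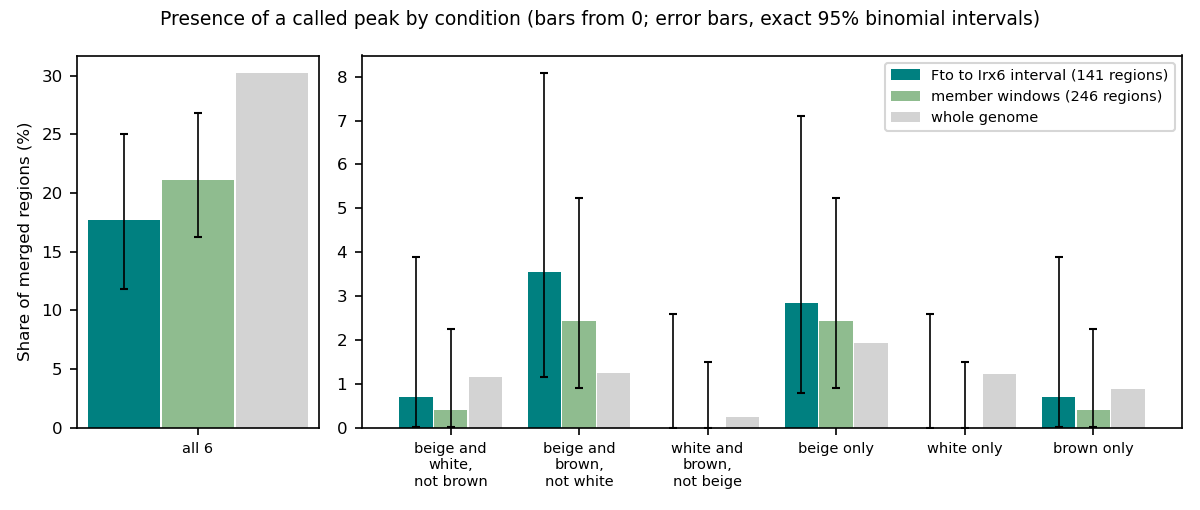
Share of merged regions (y axis, %, bars from 0) in each class of presence for the Fto to Irx6 interval, for all windows of the 8 genes and for the whole genome, with exact 95% binomial intervals as error bars. Regions open in all 6 are fewer in the interval (17.7%) than in the genome (30.2%), and the beige and brown class stands at 3.55% with an interval of 1.16 to 8.08%.

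The peaks were not spread evenly along the interval. The body of Fto (355 kb) carried 56 regions, of which between 27 and 36 were called in each library, or 8.26 per 100 kb on average. The stretch from Fto to Irx3 (130 kb) had 5.77 per 100 kb, that from Irx3 to Irx5 (556 kb) 2.85, and that from Irx5 to Irx6 (298 kb) 3.24. The introns of Fto were thus the part of the interval with the densest peaks, and the gene deserts on both sides of Irx5 had the fewest. For comparison, the median over 21911 protein-coding genes with their flanks was 7.44 peaks per 100 kb.

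Fto itself (chr8:91313525-91668439, plus strand) had 37 and 52 peaks in its window in beige, 36 and 35 in white, and 36 and 39 in brown. At 8.61 peaks per 100 kb it stood at the 58.4th percentile of protein-coding genes. In the 1st intron 17 regions were found, of which 7 were open in all 6 libraries, 1 was called in beige and brown but not white, and 1 in beige and white but not brown. That last region, 16.8 kb from the start, was weak, at percentiles of 8.60 and 18.0 in beige and 21.5 and 6.81 in white.

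The strongest element inside Fto lay 82.3 kb into the 1st intron (chr8:91395409-91396166) at percentiles of 95.2 and 96.2 in beige, 98.4 and 96.8 in white, and 93.2 and 97.4 in brown. Both white libraries thus ranked above both beige libraries at this element. It lay 7.25 kb from the region of the 2nd intron where no white peak was called. In the 8th and last intron 22 regions were found, of which 4 were open in all 6, 1 was of the beige and brown class and 1 was beige-only. The promoter of Fto, which it shares with the ciliary gene Rpgrip1l on the other strand, ranked at 98.0 and 98.0 in beige, 99.1 and 97.9 in white, and 99.0 and 98.2 in brown. It was near the top of every list, and the groups overlapped.

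All other members were judged at their promoters as well, and 7 of the 8 had a promoter peak in all 6 libraries, against 62.4% of protein-coding genes. Irx4 had none in any library, as did 28.5% of protein-coding genes. The stretches around the summits, or for Irx3 and Irx5 the bases just before the start site, are given to show the base composition on which the promoters differ, in mm10. The Irx1 summit lay 403 bp past the start site, in exon 1, so its stretch is not upstream sequence. Capitals would mark motif matches, and none fell in these stretches. Windows that touched an untranslated region were not printed.
Fto (chr8:91313321-91313421, plus strand): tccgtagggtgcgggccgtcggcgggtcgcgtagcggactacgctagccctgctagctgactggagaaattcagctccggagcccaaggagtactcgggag
Irx3 (chr8:91802068-91802168, minus strand): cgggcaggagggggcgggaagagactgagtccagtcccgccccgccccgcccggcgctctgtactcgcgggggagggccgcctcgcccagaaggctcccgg
Irx5 (chr8:92357524-92357624, plus strand): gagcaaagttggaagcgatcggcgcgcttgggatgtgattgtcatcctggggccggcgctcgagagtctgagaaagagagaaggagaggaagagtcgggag
Irx6 (chr8:92673645-92673745, plus strand): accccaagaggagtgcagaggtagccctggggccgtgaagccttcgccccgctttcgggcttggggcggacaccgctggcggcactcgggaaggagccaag
Irx1 (chr13:71963270-71963370, plus strand): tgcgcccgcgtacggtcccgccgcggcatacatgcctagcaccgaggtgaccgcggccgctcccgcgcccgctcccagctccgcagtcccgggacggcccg
Irx2 (chr13:72628688-72628788, plus strand): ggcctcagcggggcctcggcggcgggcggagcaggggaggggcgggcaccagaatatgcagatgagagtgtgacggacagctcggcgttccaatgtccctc
Arid5b, short isoform (chr10:68136647-68136747, plus strand): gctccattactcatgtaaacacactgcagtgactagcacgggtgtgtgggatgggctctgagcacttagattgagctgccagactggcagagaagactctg

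Irx3 (chr8:91798525-91802067, minus strand), the Iroquois factor most often studied in fat, had promoter percentiles of 60.9 and 55.7 in beige, 65.7 and 63.0 in white, and 61.9 and 70.9 in brown. Both white libraries and both brown libraries ranked above both beige libraries, by a few percentile points. Ranked by −log10 q instead, the same peak stood at 87.9 and 87.4 in beige, 86.7 and 87.6 in white, and 86.6 and 89.1 in brown, and the beige values then lay among the others. The separation of beige from white and brown at Irx3 thus depended on the measure used for ranking.

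Irx5 (chr8:92357625-92376286, plus strand) ranked lower, at 35.1 and 29.2 in beige and 46.7 and 30.9 in white, and higher in brown, at 61.1 and 56.8. Both brown libraries exceeded all 4 libraries of inguinal origin, and they did so by −log10 q too, at 90.6 and 86.6 against 74.2 to 81.3. Beige and white overlapped at this promoter. An exact permutation test of 2 libraries against 4 cannot give a two-sided p below 0.133.

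Irx6 (chr8:92674288-92680956, plus strand) had its promoter summit at -649 to -512 bp relative to the start site, at percentiles of 71.8 and 79.0 in beige, 80.6 and 81.6 in white, and 75.0 and 82.8 in brown. Both white libraries were above both beige libraries, while the brown libraries spanned them. Its window also held some of the strongest distal regions of the set, 31.7 kb and 46.9 kb from the start. The first of these stood at percentiles of 98.3 and 91.1 in beige, 97.0 and 98.0 in white, and 97.4 and 87.5 in brown, and the second at 93.4 to 99.0 in all 6.

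Of the sister cluster, Irx1 (chr13:71957921-71963723, minus strand) had the least reproducible promoter peak, at 33.1 and 24.6 in beige, 15.9 and 51.7 in white, and 28.7 and 56.8 in brown. The white replicates and the brown replicates each differed by more than the conditions did. Irx2 (chr13:72628820-72634198, plus strand) stood at 66.6 and 60.8 in beige, 71.4 and 58.1 in white, and 74.8 and 77.6 in brown, so that both brown libraries again exceeded the other 4. By −log10 q they also did, at 90.1 and 90.4 against 85.5 to 89.1. Irx4 (chr13:73260479-73269608, plus strand) had 2 and 2, 3 and 3, and 1 and 6 peaks in its window in beige, white and brown, and none of its 10 merged regions was open in all 6.

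**Figure D4:**
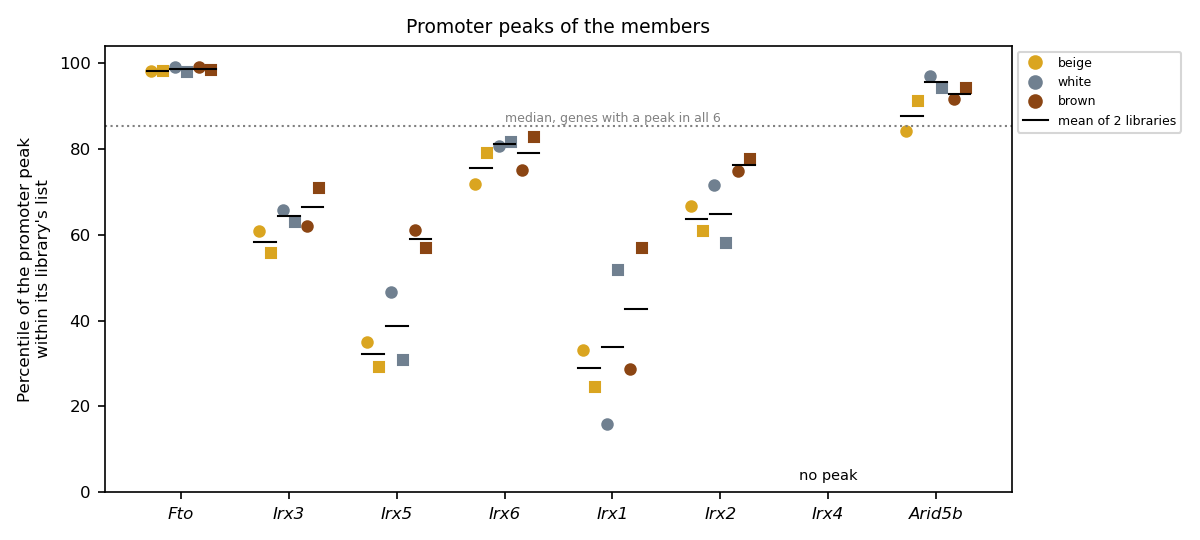
Percentile of the promoter peak within its library's own list (y axis, 100 strongest) for the 8 genes, with circles for replicate 1, squares for replicate 2 and a bar for the mean of the 2 libraries. Fto sits between 97.9 and 99.1 in all 6 libraries, both brown points lie above the other 4 at Irx5 and Irx2, and Irx4 has no peak. The dotted line is the median over coding genes with a promoter peak in any library (85.3), although its label names genes with a peak in all 6.

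The order of the mean promoter percentiles over the 6 libraries was Fto (98.4), Arid5b (92.0), Irx6 (78.5), Irx2 (68.2), Irx3 (63.0), Irx5 (43.3) and Irx1 (35.1). Within each of the 6 libraries Fto lay above Arid5b, Arid5b above Irx6, Irx6 above Irx2 and Irx3 above Irx5. Irx2 lay above Irx3 in every library but white replicate 2. Irx5 lay above Irx1 except in white replicate 2 and, narrowly, in brown replicate 2, where both stood at 56.8. Taken over all 6 libraries, the ranges overlapped between Irx6 and Irx2, Irx2 and Irx3, Irx3 and Irx5, and Irx5 and Irx1. The median over coding genes with a promoter peak in any library was 85.3, each gene averaged over the libraries that had one. All 5 Iroquois promoters that carried a peak thus ranked in the lower part of such genes by fold enrichment. Their regions were nevertheless broad. Those of Irx3, Irx5, Irx1 and Irx2 spanned 1290, 1173, 1492 and 1661 bp, against a median of 588 bp for regions open in all 6. Their G and C content was 66.6, 67.7, 68.0 and 69.0%, and the observed over expected CpG ratio lay between 0.798 and 0.849. Irx6, with 691 bp and a CpG ratio of 0.491, and the short Arid5b promoter, with 815 bp and 0.367, were narrower and poorer in CpG.

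Arid5b (chr10:68092520-68278740, minus strand) is annotated with a long and a short coding isoform. The start of the short isoform lies inside the gene, and its promoter peak ranked at 84.2 and 91.1 in beige, 97.0 and 94.1 in white, and 91.5 and 94.0 in brown. Both white libraries were above both beige libraries, and both brown libraries lay between them. The higher brown value, 94.0, was only just below the lower white value, 94.1. Within 1 kb of the start of the long isoform only beige replicate 2 had a peak, at percentile 2.99 and 924 bp into the gene. Strong regions open in all 6 flanked that start instead. One lay 2.17 kb downstream, at percentiles from 51.3 to 77.3, and one 4.53 kb upstream, at 75.6 to 94.5.

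The Arid5b window was the densest of the 8, with 39 and 47 peaks in beige, 36 and 36 in white, and 40 and 28 in brown. Its 13.2 peaks per 100 kb placed it at the 83.6th percentile of protein-coding genes. Of its 67 merged regions 17 were open in all 6, 2 were beige-only and 1 was of the beige and brown class. The stronger beige-only region, 131.7 kb into the gene, stood at percentiles of 64.8 and 43.0 with a −log10 q of 18.9 and 12.2, the highest of any beige-only region of the 8 windows. The other, 99.2 kb into the gene, was near the bottom of both lists at 5.61 and 4.91.

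**Figure D5:**
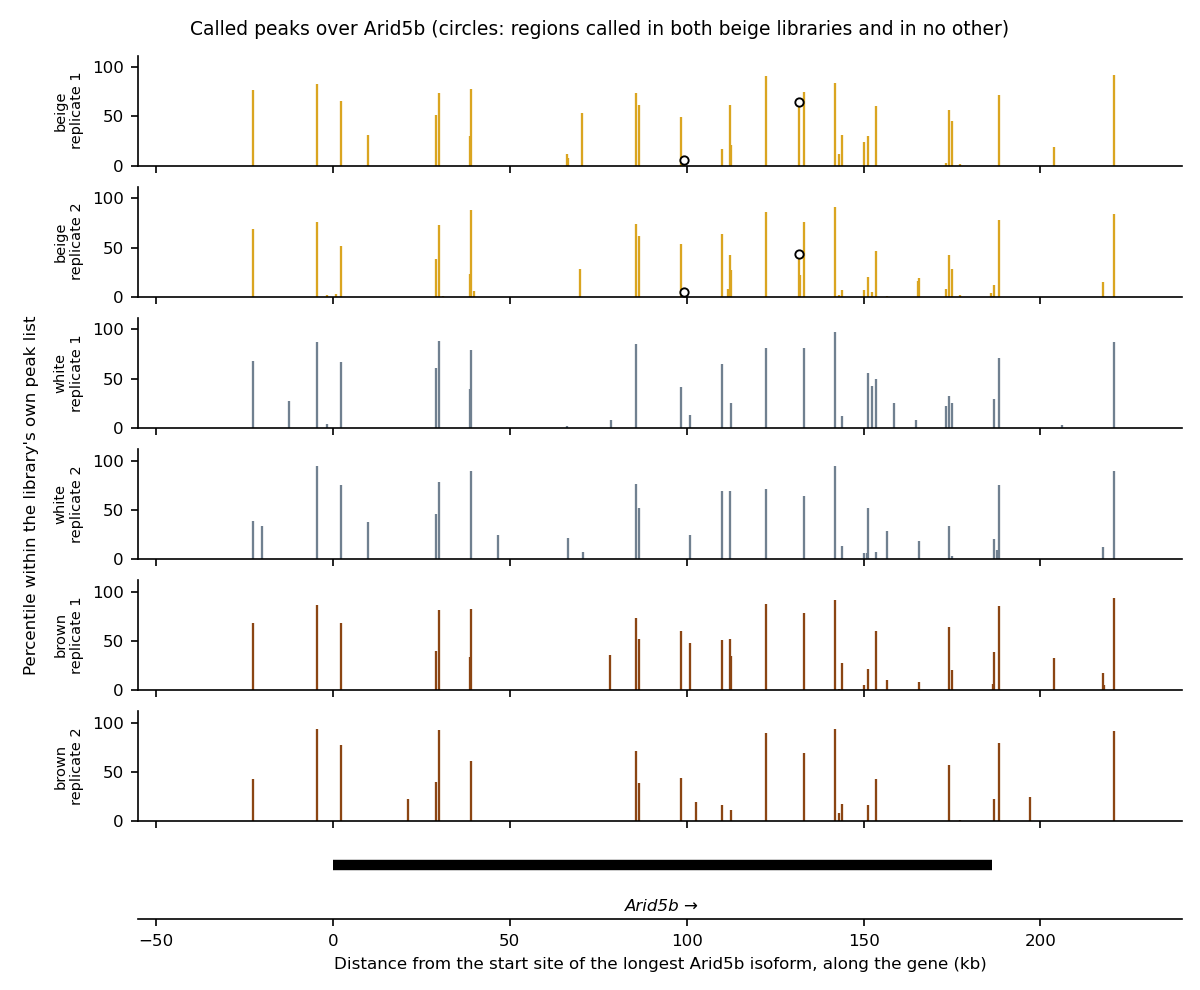
Called peaks of the 6 libraries over Arid5b and 50 kb on both sides, as lines at the distance from the start of the long isoform along the gene (x axis, kb) with a height equal to the percentile within the library's own list (y axis). The promoter peak of the short isoform stands 142.0 kb into the gene in all 6 libraries, and circles mark the 2 beige-only regions at 131.7 and 99.2 kb.

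The highest-ranked regions of the remaining classes, and the beige-only region of the 7th Fto intron that held the ARID5B motif, are shown next as 101 bases around the summit, since each represents a class named above or the motif of the human locus. Capitals mark motif matches.
Fto intron 7, beige only (chr8:91495721-91495821, plus strand): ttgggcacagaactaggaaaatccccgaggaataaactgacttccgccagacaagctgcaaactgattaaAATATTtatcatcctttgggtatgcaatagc
Fto to Irx3, beige only (chr8:91750647-91750747, plus strand): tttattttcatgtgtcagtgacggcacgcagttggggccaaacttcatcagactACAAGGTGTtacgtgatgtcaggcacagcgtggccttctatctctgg
Arid5b intron 4, beige only (chr10:68146966-68147066, plus strand): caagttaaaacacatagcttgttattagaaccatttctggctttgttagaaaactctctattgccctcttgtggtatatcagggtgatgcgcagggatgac
Fto intron 1, beige and white (chr8:91330269-91330369, plus strand): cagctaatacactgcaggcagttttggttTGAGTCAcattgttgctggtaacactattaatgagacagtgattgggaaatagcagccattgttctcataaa
Irx3 to Irx5, brown only (chr8:91999359-91999459, plus strand): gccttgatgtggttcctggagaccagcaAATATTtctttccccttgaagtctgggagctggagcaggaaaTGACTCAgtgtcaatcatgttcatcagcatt

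The beige-only region between Fto and Irx3, 51.2 kb from the Irx3 start site, ranked at percentiles of 36.4 and 38.4. A further beige-only region lay in the body of Irx5, 6.84 kb from its start, at 38.8 and 22.3, and the remaining ones in Fto stood at 44.0 and 14.1 in the 7th intron and at 41.0 and 10.8 in the 8th. The brown-only region, inside the noncoding gene Gm36843, ranked at 60.8 and 33.3. None of these exceeded the middle ranks in both replicates.

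Among the 52 regions open in all 6, both brown libraries ranked above all 4 others in 7 (13.5%, genome 10.5%) and below them in 1 (1.92%, genome 11.1%). The 7 were the promoters of Irx5 and Irx2, the Fto intron regions 19.6 and 42.7 kb from the start, and 3 regions of the Arid5b window, of which 1 lay in the 8th intron, 1 between genes and 1 in the neighbour Rtkn2. The single region ranked lower in brown lay in the 3rd intron of Arid5b, at 73.3 and 70.8 in brown and 74.0 and 74.0 in beige, a gap of under 1 percentile point at its closest. Both beige libraries ranked above both white libraries in 12 (23.1%, genome 25.8%) and below them in 14 (26.9%, genome 22.1%), and which of the counts was larger changed with the setting. With an overlap of 0.5 of both regions they were 6 above and 12 below, and 12 above and 9 below at a q value under 0.00001. Ranked by −log10 q, the counts for brown became 3 above and 9 below, and without brown replicate 1 they became 14 and 10. The direction of the brown counts thus depended on the ranking measure. The counts for beige above white rose to 20, 22 and 23 without beige replicate 2, white replicate 1 and white replicate 2, and those for beige below white to 22 without beige replicate 1 or white replicate 1.

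The motifs searched within 100 bases of each summit, on both strands, were the ARID5B site AATATT, the AP-1 site TGACTCA or TGAGTCA, the C/EBP site TTGCNNAA, the TEAD site GGAATG, the glucocorticoid receptor site ACANNNTGT, the Iroquois site ACANNTGT, the ETS site CCGGAAGT, the cAMP response element TGACGTCA and, by name, those of CTCF, EBF, NFI and the PPARG repeat. An AP-1 match was present in the windows of 4 of the 6 regions of the beige and brown class, namely those in Fto intron 2, on both sides of Irx5 and in Arid5b. The Arid5b match (chr10:68135679-68135685) lay outside the called region itself, which ended at 68135673. In the same kind of window, AP-1 was matched in 17.03% of all regions of the genome and in 19.9% of its 2438 regions of the same class. A C/EBP match was found in 2 of the 6 (12.6% of all regions), a TEAD match in 2 (14.1%) and a glucocorticoid receptor match in 1 (6.95%). No marked match overlapped another in the sequences shown.

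The site AATATT occurred in 16 of the 246 regions, or 6.50%, against 3.72% of all regions. In Fto introns it occurred in 3 of 55 regions. These were the beige-only region of the 7th intron shown above, a region of the 8th intron open in all 6, and a mixed region of the 8th intron. It also occurred in the brown-only region between Irx3 and Irx5. The Iroquois site was present in 15 regions (6.10%, all regions 6.73%), C/EBP in 35 (14.2%), AP-1 in 42 (17.1%), TEAD in 41 (16.7%) and the glucocorticoid receptor site in 12 (4.88%). The CTCF consensus was found in 1 of the 246 regions, near Irx4, and in none between Fto and Irx6, against 2.97% of all regions. The ETS site was found in 1 region (all regions 0.809%), EBF in 1 (1.40%), NFI in 1 (0.0679%) and the PPARG repeat in 2 (0.990%). The response element TGACGTCA was found in 0 of 246, which allows up to 1.22%, against 0.649% of all regions. A match or its absence describes letters in these windows only.

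The genes that work with the members were looked at through the same promoter measure. Of 13 genes of the m6A machinery, the methyltransferases, demethylase and readers of the mark that Fto removes, 13 were open at the promoter in all 6 libraries, at a median mean percentile of 95.6. The highest were Mettl14, a subunit of the methyltransferase, at 99.9 and Ythdf3, a reader, at 99.3, beside 98.4 for Fto. The promoters of 12 of 12 TALE homeobox genes other than the Iroquois were open in all 6, at a median of 74.1, and among them Pbx3 stood at 86.6. For comparison, 62.4% of protein-coding genes were open at the promoter in all 6. The median over coding genes with a promoter peak in any library was 85.3, below that of the m6A genes and above that of the TALE genes. Of the Arid5b partners and relatives, Phf2, a histone demethylase that ARID5B recruits, stood at 32.0 and Arid5a at 79.4. Among the neighbours in the windows, Rpgrip1l, Irx3os, Crnde, Gm20554 and Gm40999 had a promoter peak in all 6, and 27 of 37 had none in any.

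By the Euclidean distance between promoter percentiles over the 6 libraries, the profile most like that of Irx3 among 13636 genes was that of S100a10 (6.73 percentile points), followed by Mnt (6.87), Rasef (6.93), Nr4a3 (6.98) and Hist1h4h (7.02). For Irx5 it was Mkx (15.9), and Myc (16.3), Nkx2-4 (16.8) and Zbtb42 (17.04) were also near. Mkx, itself of the TALE class, stood at 29.3 and 40.4 in beige, 54.6 and 32.7 in white, and 56.1 and 55.9 in brown.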

How the data were processed

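ATAC-seq peak lists of 6 libraries, 2 each of beige, white and brown adipocytes, were used. The authors trimmed adaptors with Trimmomatic 0.36, used BWA 0.7.17 to align the reads to mm10, and ran MACS2 2.2.8 on each library at a q value under 0.05. The deposited fold enrichment is a ratio, that of the summit's pileup to the background around it in the same library, and the deposited −log10 p and −log10 q belong to the summit. Fold and −log10 q were used only to rank and filter peaks within a library, and no difference in signal between libraries is read from them. The lists hold no read counts, so the reads behind a peak are unknown, and a missing peak can be a peak below the threshold. The study's reporting summary gives fewer mapped reads, and a lower mapped share, for both beige libraries than for both white libraries. It gives no depth for the brown libraries. The effect of depth on the comparisons was not tested.

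Intervals with several summits were counted once, at the highest −log10 q. The lists were merged where peaks overlapped by at least 1 bp. A region belonged to a class if both replicates of the named conditions and no other library had a peak in it, and was otherwise mixed. Genes and start sites came from GENCODE M21 (basic coding transcripts), which is on the same build as the files. Sequences were read from the RefSeq assembly of that build (GRCm38). RefSeq promoter entries were found for 5 of the 8 genes and were not needed. Intervals are exact binomial (Clopper-Pearson). Python 3.11.15 with numpy 2.4.6, pandas 2.3.3, scipy 1.17.1 and matplotlib 3.10.9 was used. The merging and classes were tested on 7000 simulated regions, of which 7000 were recovered.

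The 8 genes, the gene lists and the motifs were chosen with earlier results of these data known. Named genes were the 8 members, neighbours within the windows, for each list the genes without a promoter peak in all 6 libraries and the 2 of highest mean percentile, and the 5 genes most like Irx3 and Irx5. Some genes that this rule selects are not reported here. The alternatives were a q value under 0.01 or 0.00001, lists of the same length, each library left out, an overlap of 0.5 of both regions, flanks of 20 or 100 kb, promoters of 250 bp or 3 kb, and ranking by −log10 q. The study's reporting summary calls the replicates of the ATAC-seq biological without saying whether they were separate animals or cultures, and it does not cover the brown libraries, whose spread may be technical. No other data of the study were analysed here.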

Additional observations from a re-analysis of the deposited data

How the results depend on the processing

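No paired analysis was possible because the results are presence, counts and ranks that come from no test, and nothing in the labels ties a replicate number to a shared animal or day across conditions. Between the start of Fto and the end of Irx6, a q value under 0.00001 lowered the mean number of peaks to 58.5 in beige, 42 in white and 49 in brown, and lists of the same length lowered it to 65.5 in beige, 59 in white and 68 in brown, so that the beige mean then lay below the brown mean. Leaving out single libraries gave 69 to 86 in beige, 60 to 72 in white and 70 to 73 in brown. The regions called in beige and brown and not in white numbered 3 at a q value under 0.00001 and 7 to 13 when 1 library was left out, highest without white replicate 1 and 10 without beige replicate 1. The regions open in all 6 between Fto and Irx6 (26 to 29 when 1 library was left out) and the 7 members with a promoter peak in all 6 libraries stayed within 1.5 times their counts under every alternative run. With promoters of 250 bp, however, the members with such a peak numbered 5. Over all alternatives, 41 values that answer a comparison stayed within the spread or within 1.5 times and 7 moved, and of the other counts 67 stayed and 49 moved. Fewer libraries make each class easier to enter, which is built into the alternative. The stricter threshold keeps fewer peaks. With 2 libraries per condition, only presence or absence in both replicates and the order of ranks could be described.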
